A study of Mus musculus with 30 samples.

Results

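The secreted WNT antagonists described here are the products of 10 genes, *Dkk1*, *Dkk2*, *Dkk3*, *Sfrp1*, *Sfrp2*, *Sfrp4*, *Sfrp5*, *Frzb*, *Wif1* and *Sost*, which were selected by gene name among the 50833 genes of the count table. All 10 were found, and all are protein-coding genes on autosomes. They were followed in forelimb buds of wild-type Swiss Albino mouse embryos by polyA RNA-sequencing. Pregnant females received an intraperitoneal injection of DMSO in PBS or of Wnt-C59 (C59) at E10.5, and limb buds were taken 1, 6, 12, 18 and 24 h later. By the study's methods C59 was given in PBS with DMSO, methylcellulose and Tween-20, so that the groups differ in vehicle as well as in drug, and the effects of both cannot be told apart. Each of the 10 groups holds 3 replicates, 30 libraries in all, and by the study's methods each replicate is the RNA of a single pair of forelimb buds. The treatment acts on the whole mother and embryo and is not restricted to the limb bud or to a limb cell type. Each C59 group was compared with the DMSO group of the same time. The question was how the limb bud's own inhibitors of WNT signaling respond when WNT secretion is blocked and then recovers.

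C59 inhibits porcupine, the enzyme that adds a lipid to WNT proteins so that they can be secreted and bind their receptors. Secreted antagonists limit WNT signaling outside the cell in different ways. DKK1, DKK2 and sclerostin (encoded by *Sost*) bind the co-receptors LRP5 and LRP6 and so act on the canonical, β-catenin-dependent branch, whereas SFRP proteins, FRZB (also called SFRP3) and WIF1 bind WNT ligands themselves. DKK3 is a divergent DKK family member without a settled role at these co-receptors. Several antagonist genes, with *Dkk1* as the textbook case, are also transcribed in response to β-catenin and TCF/LEF factors, which makes them negative feedback genes. In the limb, loss of *Dkk1* is known to cause fused and extra digits.

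Gene starts were available from RefSeq (GRCm38.p6) for 7 of the 10 genes, all but *Dkk3*, *Sfrp1* and *Sfrp4*. The 250 bases before each start were searched on both strands for the TCF/LEF core motif CTTTGAA or CTTTGAT. It was found in 1 of these 7 windows, that of *Dkk1*, and in 7.49% of 32544 windows of the same length over all genes. The *Dkk1* match lies 117 to 111 bases before the RefSeq start, but inside the gene as GENCODE M21 places it. It is shown with 30 bases of sequence (chr19:30549595-30549624, minus strand), the motif in capitals. For the other 3 genes that fell beyond the fold limit with *Dkk1* at 6 h (a log2 fold change of 1 in size) the sequence ahead of the gene is shown in full, cut where the GENCODE gene begins. These stretches are chr3:132085042-132085291 (plus strand) for *Dkk2*, chr10:121033754-121033959 (plus strand) for *Wif1* and chr11:101967016-101967265 (minus strand) for *Sost*. They hold no match, which says only that these letters are not in these windows.
Dkk1: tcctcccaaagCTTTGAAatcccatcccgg
Dkk2: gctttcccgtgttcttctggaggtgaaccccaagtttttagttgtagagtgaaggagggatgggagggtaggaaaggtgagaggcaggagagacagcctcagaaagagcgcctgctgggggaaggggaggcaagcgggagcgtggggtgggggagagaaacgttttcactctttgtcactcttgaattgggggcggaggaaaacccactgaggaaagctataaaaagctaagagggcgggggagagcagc
Wif1: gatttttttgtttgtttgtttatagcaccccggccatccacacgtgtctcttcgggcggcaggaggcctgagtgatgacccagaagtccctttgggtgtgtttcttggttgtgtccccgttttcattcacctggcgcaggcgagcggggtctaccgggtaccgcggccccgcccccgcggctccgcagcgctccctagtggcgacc
Sost: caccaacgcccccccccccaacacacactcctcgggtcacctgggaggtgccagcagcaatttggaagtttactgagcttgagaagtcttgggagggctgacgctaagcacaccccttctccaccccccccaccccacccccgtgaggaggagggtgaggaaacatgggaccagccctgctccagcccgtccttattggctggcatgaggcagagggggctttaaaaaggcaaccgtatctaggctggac

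Libraries held 18188636 to 38974885 counts. C59 18 h replicate 3 stood apart from its group, with a chi-square per degree of freedom of 45.5 and 38.1 against replicates 1 and 2, which differed by 4.21 from each other. Without it 5 of the antagonist genes differed between C59 and DMSO at 18 h (edgeR adjusted p under 0.05) in place of 4, *Frzb* being added, and *Dkk1* and *Sfrp2* still changed by a log2 fold change above 1 in size. The drug was checked with *Axin2*, a feedback gene of canonical WNT signaling, whose level in C59 limb buds was 25.7% of the DMSO level at 6 h. It then climbed through 36.5% (12 h) and 88.6% (18 h) to 93.8% (24 h). Summed levels of 5 forelimb mesenchyme markers, among them *Tbx5* and *Prrx1*, were 1083 to 1655 CPM (counts scaled to the library size after TMM normalization), and those of the hindlimb markers *Tbx4* and *Pitx1* 9.83 to 23.7 CPM. The embryos were not matched for sex at every time. At 6 h, Y-linked transcripts were found in 3 of 3 C59 and 0 of 3 DMSO libraries, so that sex and treatment cannot be told apart there. At 12 h they were found in 1 of 3 libraries of each treatment. In C59 and DMSO they were found in 3 of 3 and 2 of 3 libraries at 1 h and at 24 h, and in 2 of 3 and 1 of 3 at 18 h. A library counted here with a summed Y-linked level of at least 1 FPKM. DMSO 1 h replicates 1 and 2 had 7.66 and 9.03 FPKM, and all others that counted had 18.82 FPKM or more. The reason for these lower sums was not tested. In whole limb buds, fewer cells expressing a gene and less RNA per cell cannot be told apart.

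In DMSO limb buds the antagonists spanned a wide range of levels, compared here per transcript length in FPKM (fragments scaled to transcript length and library size). At 1 h *Sfrp1* ranked first with 35.8 FPKM ± 1.73 (SD, n = 3), followed by *Sfrp2* with 25.7 FPKM ± 1.26 (SD, n = 3) and *Frzb* with 18.9 FPKM ± 0.831 (SD, n = 3). *Sost* (8.13 FPKM ± 1.44) and *Wif1* (7.33 FPKM ± 0.232) overlapped in their libraries, and *Dkk1* (4.56 FPKM), *Dkk2* (2.58 FPKM) and *Dkk3* (1.71 FPKM) followed in that order without overlap. *Sfrp4* (0.161 FPKM) and *Sfrp5* (0.0427 FPKM) were near the limit of detection. At 24 h the order in DMSO limb buds was *Sfrp2* (73.7 FPKM ± 4.80), *Sfrp1* (26.7 FPKM ± 1.63), *Wif1* (20.5 FPKM ± 0.394), *Frzb* (17.2 FPKM ± 0.246), *Dkk2* (13.9 FPKM ± 0.358), *Dkk3* (4.46 FPKM), *Sost* (3.20 FPKM) and *Dkk1* (2.69 FPKM), each without overlap with its neighbour. *Sfrp5* (0.0956 FPKM) and *Sfrp4* (0.0509 FPKM) came last and overlapped.

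Which antagonists predominated thus changed with time in DMSO limb buds. Age of the embryo and time since the DMSO injection cannot be told apart, as all limb buds came from injected females. Between 1 h and 24 h in DMSO limb buds all 8 genes that could be tested passed an adjusted p of 0.05, as did 56.5% of all genes (edgeR quasi-likelihood test with Benjamini-Hochberg adjustment over every gene tested, as for each adjusted p given here), and 5 of them also passed a log2 fold change of 1 in size (12.1% of all genes). *Dkk2* rose by 2.31 ± 0.09 (SE) on the log2 scale (edgeR adjusted p 2.46e-12), since the DMSO libraries of 1 h averaged 12.5 CPM ± 1.30 (SD, n = 3) and those of 24 h 61.7 CPM ± 1.92 (SD, n = 3). *Wif1* (1.41), *Sfrp2* (1.40) and *Dkk3* (1.32) rose by log2 fold changes above 1 as well. *Sost* fell, with a log2 fold change of -1.39 ± 0.14 (edgeR adjusted p 2.89e-07) and means of 22.4 CPM ± 3.89 (SD, n = 3) at 1 h and 8.49 CPM ± 0.429 (SD, n = 3) at 24 h. *Dkk1* (-0.85), *Sfrp1* (-0.49) and *Frzb* (-0.21) also fell, *Frzb* with an edgeR adjusted p of 0.0186 that rose to 0.0583 without DMSO 1 h replicate 2, 0.0715 without DMSO 1 h replicate 3 and 0.0520 without DMSO 24 h replicate 1. Neighbouring times differed for 5, 4, 5 and 5 of the 8 genes from 1 h to 6 h (6.47% of all genes), 6 h to 12 h (4.41%), 12 h to 18 h (14%) and 18 h to 24 h (12%). *Frzb* turned within this course, with a log2 fold change of 0.375 from 1 h to 6 h (edgeR adjusted p 0.00415) and -0.508 from 18 h to 24 h (edgeR adjusted p 0.000416). Both changes of *Frzb* passed in 6 of 6 fits that left out 1 library. *Dkk1* turned as well, with a fold change of 0.43 from 1 h to 6 h (edgeR adjusted p 0.0348) and a fall from 6 h to 12 h (-0.63, edgeR adjusted p 0.00535). The first of these passed in 2 of 6 fits that left out 1 library, the adjusted p being 0.126, 0.109, 0.123 or 0.0869 without DMSO 1 h replicate 2 or 3 or DMSO 6 h replicate 1 or 3.

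**Figure D1:**
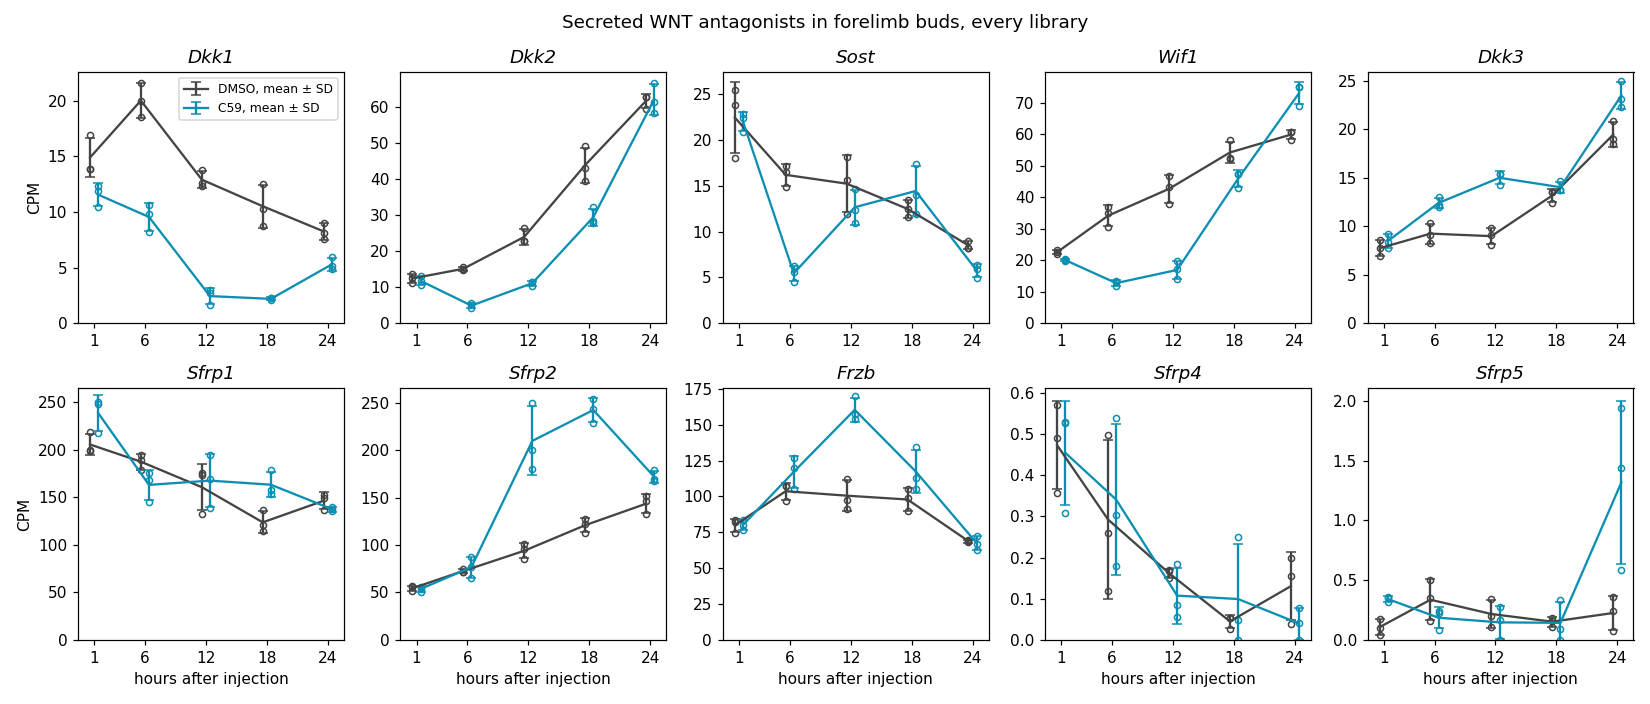
CPM of each of the 10 genes against hours after injection, in DMSO (grey) and C59 (blue) limb buds. Circles are single libraries and lines and bars are means ± SD of 3 libraries, and the vertical axis differs between panels. *Dkk1* in C59 is lowest at 12 and 18 h, *Sost* is low in C59 at 6 h and *Sfrp2* is high in C59 at 12 and 18 h.

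C59 moved the antagonists in opposite directions, and which of them were affected depended on the time. At 6 h *Dkk1*, *Dkk2*, *Sost* and *Wif1* fell by a log2 fold change beyond 1, *Sfrp1* fell by less, and *Dkk3* rose. Of 8 genes above the filter on low counts, 6 passed an adjusted p of 0.05 (19.6% of all genes did), and 4 also passed a log2 fold change of 1 in size (1.17% of all genes). At 12 h 6 of 8 passed (47.5% of all genes), namely *Dkk1*, *Dkk2* and *Wif1* downward and *Sfrp2*, *Dkk3* and *Frzb* upward, and 4 of them passed the fold limit (4.95% of all genes). At 18 h 4 of 8 passed (7.08% of all genes), and 2 of them the fold limit (1.29%), *Dkk1* lower and *Sfrp2* higher. At 24 h 5 of 9 passed (6.44% of all genes), *Sfrp5*, *Wif1* and *Sfrp2* higher and *Dkk1* and *Sost* lower, and 1 passed the fold limit (0.819%), *Sfrp5*. This gene came above the filter on low counts there through its C59 libraries alone, so its place in these counts is not independent of its high level. The count at 24 h rested on single libraries, with 1, 0 and 1 genes passing without DMSO 24 h replicates 1, 2 and 3 and 1 without C59 24 h replicate 2, and at 18 h 2 passed (*Dkk1* and *Sfrp2*) without each library except C59 18 h replicate 3. At 1 h 0 of 9 passed by edgeR (2.75% of all genes, and 0.283% with the fold limit), 3 had an unadjusted p below 0.05, and DESeq2 passed 1, *Sfrp1*. The libraries of C59 and DMSO did not overlap for 2 of 9 genes at 1 h (22% of all genes), 6 of 8 at 6 h (36.8%), 6 of 8 at 12 h (57.1%), 7 of 8 at 18 h (34.2%) and 6 of 9 at 24 h (27.7%). The study itself plotted *Dkk1*, *Dkk2*, *Wif1* and *Sfrp5* among WNT genes, *Sost* among BMP genes and *Sfrp2* among chondrogenic genes that it chose on these libraries, so their directions are not independent evidence.

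**Figure D2:**
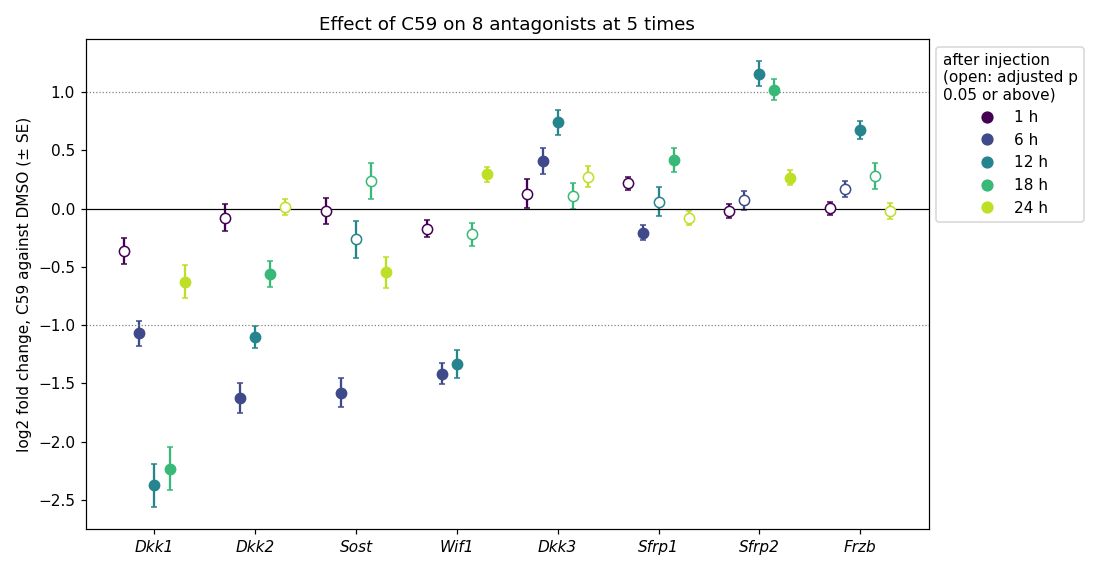
Log2 fold change of C59 against DMSO with its SE (vertical axis) for the 8 genes tested at every time, coloured by hours after injection. Filled points passed an adjusted p of 0.05, and dotted lines mark log2 fold changes of -1 and 1. *Dkk1*, *Dkk2*, *Sost* and *Wif1* lie below -1 at 6 h, and *Sfrp2* lies above 1 at 12 and 18 h.

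*Dkk1* (ENSMUSG00000024868, mm10 chromosome 19, 30545863 to 30549665) encodes an LRP5 and LRP6 ligand and had the longest reduction of the 10 genes. At 6 h it read 21.6, 18.5 and 20.0 CPM in DMSO libraries and 9.84, 8.19 and 10.6 CPM in C59 libraries, and the log2 fold change was -1.07 ± 0.11 (edgeR adjusted p 1.80e-05). Its fold change was -0.97 without C59 6 h replicate 2. At 12 h the DMSO libraries stood at 12.6, 12.4 and 13.8 CPM and the C59 libraries at 1.63, 2.73 and 2.99 CPM, which is 19% of the DMSO mean (log2 fold change -2.38 ± 0.19, edgeR adjusted p 4.49e-06). All C59 libraries were far under the lowest DMSO library. At 18 h the gap was as wide, with 12.6, 10.3 and 8.75 CPM in DMSO and 2.06, 2.25 and 2.30 CPM in C59 (-2.23 ± 0.18, edgeR adjusted p 0.000939). At 24 h C59 libraries had regained 5.13, 5.93 and 4.84 CPM against 9.06, 8.16 and 7.57 CPM in DMSO, still without overlap (-0.63 ± 0.14, edgeR adjusted p 0.0209). This last adjusted p was 0.107 without DMSO 24 h replicate 1 and 0.0609 without DMSO 24 h replicate 2. Between 6 h and 12 h the effect deepened, with an interaction contrast of -1.30 ± 0.21 (edgeR adjusted p 0.000557), and shrank by 1.60 ± 0.23 between 18 h and 24 h (edgeR adjusted p 0.00132), while the change from 12 h to 18 h was 0.15 ± 0.28 (edgeR adjusted p 0.803). At 1 h the groups already did not overlap (13.9 to 16.9 CPM in DMSO, 10.4 to 12.3 CPM in C59), and the edgeR adjusted p was 0.101.

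*Dkk2* (ENSMUSG00000028031, chromosome 3, 132085292 to 132180304), which encodes a second DKK protein that binds these co-receptors, was lowest earlier. At 6 h it read 15.7, 14.95 and 14.8 CPM in DMSO and 4.14, 5.003 and 5.63 CPM in C59 libraries (-1.63 ± 0.13, edgeR adjusted p 1.60e-06). At 12 h the values were 22.7, 26.4 and 22.7 CPM in DMSO and 10.4, 11.4 and 11.6 CPM in C59 (-1.10 ± 0.10, edgeR adjusted p 8.29e-06). The C59 libraries kept rising, to 28.4, 32.1 and 27.7 CPM at 18 h, when DMSO libraries had 43.0, 49.1 and 39.5 CPM (-0.56 ± 0.11, edgeR adjusted p 0.0229). Among fits that left out 1 library that call held in the one without C59 18 h replicate 3, and leaving out any of the other 5 libraries gave -0.63 to -0.47 and edgeR adjusted p values of 0.0509 to 0.102. At 24 h the groups overlapped, with 58.2 to 66.6 CPM in C59 and 59.4 to 62.8 CPM in DMSO (0.01 ± 0.07, edgeR adjusted p 0.933). Its interaction contrasts were positive in all 3 intervals from 6 h on (0.52, 0.55 and 0.57).

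*Sost* (ENSMUSG00000001494, chromosome 11, 101962458 to 101967015) encodes sclerostin, best known as a bone-derived WNT inhibitor. At 6 h it read 16.5, 17.1 and 14.9 CPM in DMSO and 4.53, 5.59 and 6.22 CPM in C59 libraries (-1.58 ± 0.13, edgeR adjusted p 2.10e-06). At 12 h the groups overlapped, with 15.6, 11.9 and 18.1 CPM in DMSO and 10.9, 12.4 and 14.7 CPM in C59 (-0.26 ± 0.16, edgeR adjusted p 0.196, and 0.0316 without DMSO 12 h replicate 2). Its effect thus shrank by 1.31 ± 0.22 between 6 h and 12 h (edgeR interaction contrast, adjusted p 0.000579), whereas that of *Wif1* changed by 0.08 ± 0.16 (edgeR adjusted p 0.773). At 24 h *Sost* was lower again, with 8.23, 8.98 and 8.24 CPM in DMSO and 6.37, 5.93 and 4.99 CPM in C59 (-0.55 ± 0.14, edgeR adjusted p 0.0336). This second decrease depended on single libraries. It passed in 1 of 6 fits that each left out 1 library (without C59 24 h replicate 1), and the other 5 gave -0.57 to -0.45 with edgeR adjusted p values of 0.0725 to 0.117.

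*Wif1* (ENSMUSG00000020218, chromosome 10, 121033960 to 121100650) encodes a secreted protein that binds WNT ligands. At 6 h it read 30.5, 34.9 and 37.0 CPM in DMSO and 13.4, 11.8 and 13.1 CPM in C59 (-1.42 ± 0.09, edgeR adjusted p 1.87e-07), and at 12 h 37.9, 46.8 and 43.2 CPM in DMSO and 19.7, 17.2 and 14.0 CPM in C59 (-1.33 ± 0.12, edgeR adjusted p 1.00e-05). The C59 libraries then rose to 47.5, 42.9 and 47.3 CPM at 18 h, against 52.1, 52.4 and 58.1 CPM in DMSO (-0.22 ± 0.10, edgeR adjusted p 0.201), and the interaction contrast between 12 h and 18 h was 1.12 ± 0.16 (edgeR adjusted p 0.00104). At 24 h all C59 libraries (75.0, 75.1 and 68.9 CPM) were above all DMSO libraries (60.8, 58.2 and 60.6 CPM), with a log2 difference of 0.29 ± 0.07 (edgeR adjusted p 0.0218). The increase at 24 h kept its sign in every fit that left out 1 library (0.27 to 0.34). Its edgeR adjusted p was 0.0827, 0.1 and 0.0778 without DMSO 24 h replicates 1, 2 and 3 and 0.0595 without C59 24 h replicate 2.

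*Sfrp2* (ENSMUSG00000027996, chromosome 3, 83766321 to 83774316), a WNT-binding antagonist, moved the other way. It did not differ beyond replicate error at 6 h, with 74.5, 71.8 and 71.6 CPM in DMSO and 87.4, 77.3 and 65.4 CPM in C59 (0.07 ± 0.08, edgeR adjusted p 0.580). At 12 h it read 95.5, 101 and 85.3 CPM in DMSO and 250.1, 199.7 and 179.7 CPM in C59 (1.158 ± 0.11, edgeR adjusted p 1.29e-05), and at 18 h 127, 123 and 113 CPM in DMSO and 229, 254 and 244 CPM in C59 (1.02 ± 0.09, edgeR adjusted p 0.00133). Every C59 library lay well above every DMSO library at both times. The fold change at 18 h was 0.98 without DMSO 18 h replicate 3 and 0.99 without C59 18 h replicate 2. The increase appeared between 6 h and 12 h, by 1.08 ± 0.15 (edgeR interaction contrast, adjusted p 0.000165). At 24 h the levels were 133, 146 and 152 CPM in DMSO and 169, 179 and 168 CPM in C59 (0.27 ± 0.06, edgeR adjusted p 0.0283). Without DMSO 24 h replicate 1, 2 or 3 or C59 24 h replicate 2 that adjusted p was 0.164, 0.0903, 0.0580 or 0.0764. At 12 h the C59 mean of 210 CPM was above the DMSO mean of 24 h (144 CPM). An antisense gene, *Gm26771*, overlaps the end of *Sfrp2*, and the strand of counting was not stated, so reads of the pair cannot be told apart there. *Gm26771* had 3 to 38 counts per library, 0.508% of those of *Sfrp2*.

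*Frzb* (ENSMUSG00000027004, chromosome 2, 80411970 to 80447625), which encodes a WNT-binding protein of the SFRP family, rose at 12 h. DMSO libraries had 97.8, 91.5 and 112 CPM and C59 libraries 154, 157 and 170 CPM (0.67 ± 0.07, edgeR adjusted p 3.94e-05). At 6 h its fold change was 0.17 ± 0.07 (edgeR adjusted p 0.0889, and 0.0220 without C59 6 h replicate 3). At 18 h it was 0.28 ± 0.11 (edgeR adjusted p 0.173, and 0.0364 without C59 18 h replicate 3). At 24 h the groups overlapped (67.5 CPM ± 4.92 in C59 and 68.8 CPM ± 0.979 in DMSO, SD, n = 3).

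*Dkk3* (ENSMUSG00000030772, chromosome 7, 112116017 to 112159057) did not follow *Dkk1* and *Dkk2*. At 12 h it read 8.09, 9.07 and 9.79 CPM in DMSO and 15.4, 15.4 and 14.2 CPM in C59 (0.74 ± 0.11, edgeR adjusted p 0.000298). At 6 h the C59 libraries (13.0, 12.2 and 12.0 CPM) were also above the DMSO libraries (10.3, 9.07 and 8.32 CPM), with a log2 difference of 0.41 ± 0.11 (edgeR adjusted p 0.0196). That p was 0.0750 without DMSO 6 h replicate 3 and 0.0749 without C59 6 h replicate 1. The levels were closer at 18 h, still without overlap (14.0 CPM ± 0.564 in C59 and 13.2 CPM ± 0.634 in DMSO, SD, n = 3). The log2 difference there was 0.107 ± 0.109 (edgeR adjusted p 0.589). The interaction contrast between 12 h and 18 h was -0.63 ± 0.15 (edgeR adjusted p 0.0166, and 0.0523 without DMSO 12 h replicate 1). At 24 h all C59 libraries were again above all DMSO libraries, with means of 23.46 and 19.44 CPM. This difference did not pass (0.275 ± 0.0862, edgeR adjusted p 0.0772).

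*Sfrp1* (ENSMUSG00000031548, chromosome 8, 23411502 to 23449632), another WNT-binding antagonist and the one with the highest level at 1 h, changed little. At 6 h it was slightly lower in C59 (146, 169 and 175 CPM) than in DMSO (195, 189 and 178 CPM), with a log2 fold change of -0.21 ± 0.06 (edgeR adjusted p 0.0357). This p was 0.0833 without DMSO 6 h replicate 1, 0.186 without C59 6 h replicate 1 (fold change -0.13) and 0.0629 without C59 6 h replicate 2, and 5 of 11 other settings passed. At 18 h the order was opposite, with 158, 179 and 154 CPM in C59 and 120, 137 and 114 CPM in DMSO (0.42 ± 0.10, edgeR adjusted p 0.0452). Only the fit without C59 18 h replicate 3 kept that call among those that left out 1 library. Removal of each of the other 5 libraries gave 0.35 to 0.49 and edgeR adjusted p values of 0.0755 to 0.212. At 1 h the fold change was 0.22 ± 0.06 (edgeR adjusted p 0.0525, and 0.0107 without DMSO 1 h replicate 3 and 0.0164 without C59 1 h replicate 3), and at 12 h and 24 h the groups overlapped.

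*Sfrp4* (ENSMUSG00000021319, chromosome 13, 19623104 to 19632994) and *Sfrp5* (ENSMUSG00000018822, chromosome 19, 42197971 to 42202252) were close to undetected. *Sfrp4* had 0 to 16 counts per library and passed the filter on low counts for the treatment comparison at 1 h only, where the groups overlapped. *Sfrp5* had 0 to 12 counts in all groups but the C59 libraries of 24 h, which held 14, 37 and 40 counts against 7, 2 and 6 counts in DMSO. In CPM these were 0.583, 1.44 and 1.94 for C59 and 0.360, 0.0781 and 0.238 for DMSO, and the log2 fold change was 2.58 ± 0.54 (edgeR adjusted p 0.0168). *Sfrp5* came above the filter on low counts for this comparison only through these C59 libraries. Its p-value thus rests on the same values that let it be tested. All C59 libraries were higher, but the call was lost without DMSO 24 h replicate 2 (2.14, edgeR adjusted p 0.0699), without DMSO 24 h replicate 3 (2.66, edgeR adjusted p 0.0588) and without C59 24 h replicate 2 (2.50, edgeR adjusted p 0.05). limma on log2(FPKM + 1) gave an adjusted p of 0.0685, and DESeq2 gave none for this gene. At this depth smaller differences in *Sfrp4* and *Sfrp5* were not detectable.

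Effects at neighbouring times were compared directly by interaction contrasts. The effect of C59 differed between 1 h and 6 h for 5 of 9 genes (13% of all genes passed), namely *Dkk2* (-1.54), *Sost* (-1.56), *Wif1* (-1.24), *Dkk1* (-0.71) and *Sfrp1* (-0.42), all toward lower levels. From 6 h to 12 h the effect changed for 5 of 8 genes (18.1% of all genes), *Sost*, *Sfrp2*, *Dkk2* and *Frzb* upward and *Dkk1* downward. The contrast of *Dkk2* in that interval was lost in 5 of 12 fits that left out 1 library (0.41 to 0.52, edgeR adjusted p 0.0511 to 0.0865), which are those without DMSO 6 h replicate 1, C59 6 h replicate 1, DMSO 12 h replicates 1 and 3 and C59 12 h replicate 2. From 12 h to 18 h 3 of 8 changed (8.49% of all genes), *Wif1* and *Dkk2* upward and *Dkk3* downward, and leaving out DMSO 12 h replicate 1 left 1, *Wif1*. *Dkk2* passed here in 3 of 12 such fits, those without DMSO 18 h replicate 2 and C59 18 h replicates 1 and 3. From 18 h to 24 h 6 of 9 changed (6.96% of all genes), *Dkk1*, *Dkk2* and *Wif1* upward and *Sfrp2*, *Sfrp1* and *Sost* downward, and leaving out DMSO 24 h replicate 1 left 3, whereas 8 changed without C59 18 h replicate 3. Among the 12 such fits *Sost* was lost in 7 and *Sfrp1* in 4. These 4 contrasts share libraries with their neighbours and are not independent of each other.

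Set against *Axin2* at 18 h, *Wif1* was closest to the treatment marker and *Dkk1* farthest under it. When *Axin2* was back at 88.6% of DMSO, *Wif1* stood at 84.7%, *Dkk2* at 67.1% and *Dkk1* at 20.9%, while *Sost* was at 116%. At 24 h *Dkk1* was at 64.2%, *Sost* at 67.9%, *Dkk2* at 101% and *Wif1* at 122%. *Sfrp2* was at 223% at 12 h and 200% at 18 h, and *Sox9*, the master regulator of cartilage, at 227% and 123%. At 18 h *Sox9* read 329.8, 323.6 and 235.3 CPM in C59 replicates 1, 2 and 3, against 253.8, 237.5 and 231.8 CPM in DMSO. Its ratio at 18 h thus depends on C59 18 h replicate 3, the library that stood apart. These percentages are ratios of group means and were not tested between genes.

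**Figure D3:**
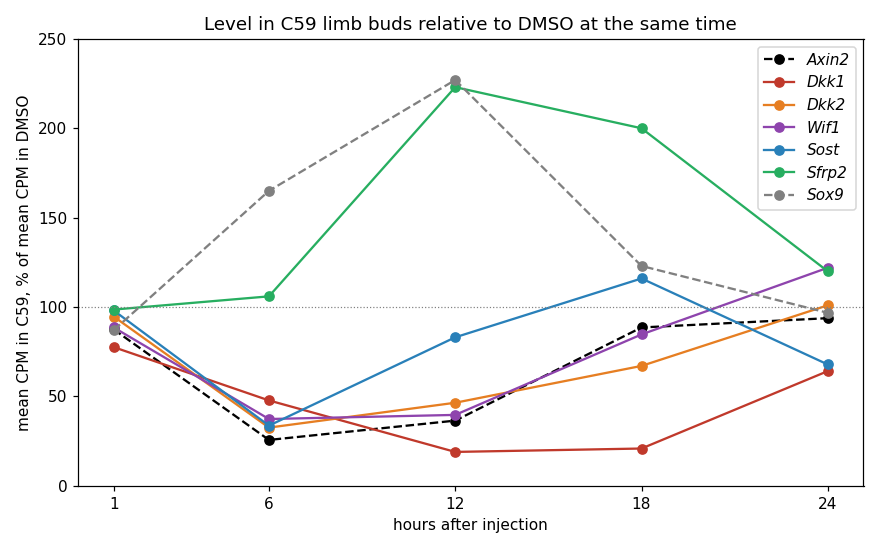
Mean CPM in C59 limb buds as a percentage of the DMSO mean of the same time (vertical axis, 3 libraries each) against hours after injection. The dotted line marks equal levels and dashed lines are *Axin2* and *Sox9*. *Dkk1* is at 20.9% at 18 h when *Axin2* is at 88.6%, and *Sfrp2* is at 200% when *Sox9* is at 123%. For *Sox9* at 18 h, C59 replicate 3 (235.3 CPM) lay within the DMSO range (231.8 to 253.8 CPM).

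The antagonists were summed by class, those that bind the co-receptors and those that bind WNT ligands. At 6 h the first sum was lower in C59 while the second overlapped with DMSO. At 12 h and 18 h the sums moved in opposite directions. The genes within a class did not all move alike. The summed level of *Dkk1*, *Dkk2* and *Sost* at 6 h was 15.2 FPKM ± 1.09 (SD, n = 3) in DMSO and 5.95 FPKM ± 0.804 (SD, n = 3) in C59, and at 12 h 14.6 FPKM ± 0.830 and 8.15 FPKM ± 1.01. The WNT-binding genes (*Sfrp1*, *Sfrp2*, *Sfrp4*, *Sfrp5*, *Frzb* and *Wif1*) summed to 103 FPKM ± 4.68 in DMSO and 98.2 FPKM ± 5.48 in C59 at 6 h. At 12 h their sum was 112 FPKM ± 5.46 in DMSO and 185 FPKM ± 23.0 in C59. Within this class *Sfrp2* (45.5 FPKM in DMSO, 107.8 FPKM in C59) and *Frzb* (24.0 and 40.5 FPKM) were higher in C59. *Sfrp1* stood at 28.2 and 31.0 FPKM, and *Wif1* went against the sum (14.0 and 5.8 FPKM). *Sfrp2* alone made up 35.4% ± 1.48 (SD, n = 3) of the summed FPKM of the 10 genes in DMSO at 12 h and 54.5% ± 3.05 (SD, n = 3) in C59, and *Dkk1* 3.14% ± 0.228 and 0.424% ± 0.164. At 18 h the co-receptor ligands summed to 17.5 FPKM ± 1.67 in DMSO and 12.8 FPKM ± 0.873 in C59. The WNT-binding genes then summed to 123.5 FPKM ± 2.71 in DMSO and 192.7 FPKM ± 12.1 in C59. By 24 h the sums of the 3 co-receptor ligands were 19.8 FPKM ± 0.289 in DMSO and 17.9 FPKM ± 0.552 in C59, and those of the WNT-binding genes 138 FPKM ± 3.67 and 154 FPKM ± 7.59. These sums are descriptions of transcript levels, dominated in the second class by *Sfrp2*, *Sfrp1* and *Frzb*, and say nothing of protein amounts.

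**Figure D4:**
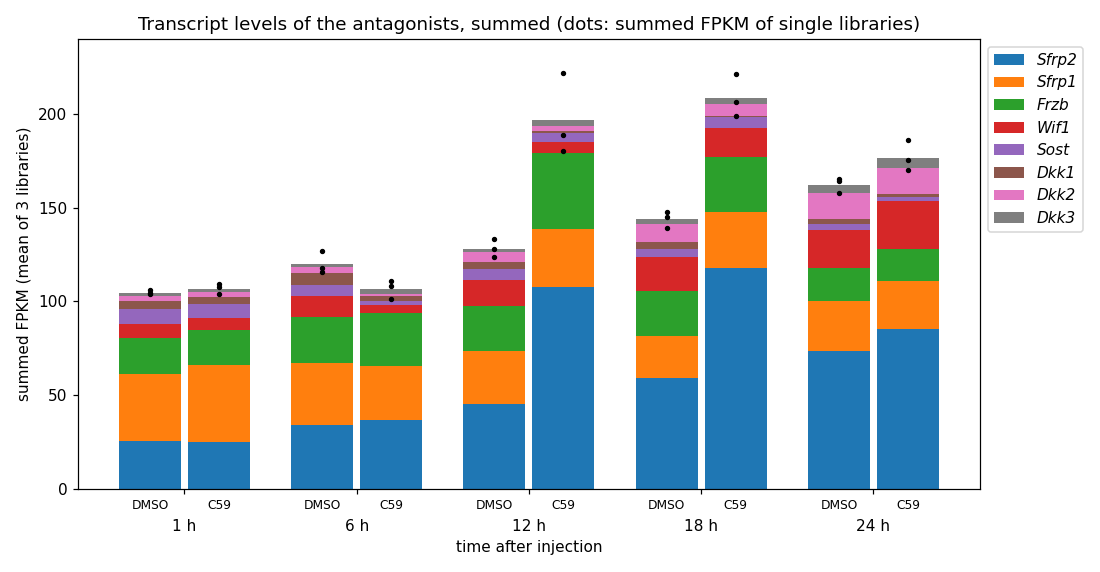
Summed FPKM of the antagonists (vertical axis) in DMSO and C59 limb buds at each time after injection. Coloured segments are means of 3 libraries per gene, *Sfrp4* and *Sfrp5* are too low to draw, and dots are the sums over all 10 genes in single libraries. The *Sfrp2* segment is 45.5 FPKM in DMSO and 107.8 FPKM in C59 at 12 h.

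Across the 10 group means the genes did not form a single profile. The correlation of log2(CPM + 0.5) was 0.969 between *Dkk2* and *Wif1* and -0.872 between *Dkk1* and *Sfrp2* (Pearson's r over 10 groups, which share the time course and the drug and are given as a description). Among 13189 protein-coding genes, the most similar profile was that of *Cd44*, a hyaluronan receptor, to *Dkk1* (0.991), of *Mybpc1* (0.981) and *Lgr5*, an R-spondin receptor and WNT target (0.978), to *Dkk2*, and of *Adcy3* to *Wif1* (0.981). For *Sfrp2* these were *Sema3d* (0.992), *Grina* (0.992) and *Tenm2* (0.990), for *Sfrp1* *Abt1* (0.969), for *Frzb* *Sbk1* (0.960), for *Sost* *Tmem81* (0.959) and for *Sfrp5*, at its low counts, *Eid2* (0.894).

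Other genes of the pathway were counted for comparison. Of 12 canonical WNT targets, 12 fell at 6 h (11.4% of all genes fell), 5 of them beyond the fold limit (*Sp5* -4.50, *Nkd2* -2.04, *Axin2* -1.97, *Nkd1* -1.07 and *Lgr5* -1.03), and 11 fell at 12 h (25.5% of all genes). At 6 h 5 of 9 tested genes for other extracellular inhibitors fell and 0 rose. These were *Notum*, a WNT deacylase (-3.42), *Apcdd1*, a membrane-bound inhibitor (-2.52), *Sostdc1* (-0.71), *Kremen2* (-0.43) and *Kremen1* (-0.17), the last a pair of DKK co-receptors. *Notum* was at 0.570 CPM in C59 and 7.54 CPM in DMSO at 12 h and at 6.06 and 5.68 CPM at 18 h. WNT ligand genes fell and rose, 7 and 4 of 16 at 6 h (19.6% of all genes passed), and 1 and 7 of 16 at 12 h (25.5% of all genes fell and 22% rose), and only *Wnt2b* passed the fold limit at these times (-1.011 at 6 h). Of 15 receptor genes 3 fell and 3 rose at 6 h, where 19.6% of all genes passed, with *Fzd10* at -1.99. The co-receptor ligands and *Wif1* thus moved in the same direction at 6 h as every listed target, by counts alone.

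Markers of several cell types also moved at the times when the antagonists did. The summed level of 11 ectoderm and ridge markers was 419 to 569 CPM in C59 and 341 to 371 CPM in DMSO at 12 h, with 7 genes higher and 2 lower, among them *Fgf8* (-3.17), the ridge signal. Among all genes 22% rose and 25.5% fell at 12 h. At 6 h the ectoderm and ridge sum was 348 to 351 CPM in C59 and 353 to 387 CPM in DMSO. Of 16 cartilage and joint genes, 12 rose and 0 fell at 12 h (22% of all genes rose, median log2 fold change 1.20 against 0.02 over all genes tested), led by *Matn1* (1.81), *Nog* (1.62) and *Sox6* (1.56). Of 7 macrophage markers 6 rose at 12 h (53.9 to 58.4 CPM in C59, 32.8 to 38.0 CPM in DMSO). Of 5 forelimb mesenchyme markers 4 fell at 12 h (1083 to 1148 CPM in C59, 1572 to 1639 CPM in DMSO), as did 25.5% of all genes. Of 7 endothelial markers 4 rose at 12 h (409 to 457 CPM in C59, 325 to 359 CPM in DMSO), and of 5 nerve and Schwann cell markers 3 rose (85.8 to 115 CPM in C59, 37.3 to 52.9 CPM in DMSO). Of 6 muscle precursor markers 2 rose and 1 fell at 6 h (121 to 133 CPM in C59, 89.5 to 93.6 CPM in DMSO), and 3 fell beyond the fold limit at 18 h (121 to 165 CPM in C59, 170.0 to 174 CPM in DMSO). The shares of all genes were 19.6% passing in the former case and 1.29% past the fold limit in the latter. At 18 h ectoderm and ridge markers summed to 406 to 463 CPM in C59 and 330 to 351 CPM in DMSO, and macrophage markers to 67.5 to 72.8 and 46.1 to 52.2 CPM. Of these, 4 ectoderm genes rose and 1 fell, and 3 macrophage genes rose, where 7.08% of all genes passed. At 24 h the ectoderm and ridge sums were 430 to 462 CPM in C59 and 365 to 375 CPM in DMSO, and the macrophage sums 65.7 to 73.5 and 55.9 to 62.4 CPM, with 3 and 2 genes higher. Among all genes 6.44% passed there. Endothelial sums were lower in C59 (290 to 326 CPM) than in DMSO (347 to 354 CPM) at 24 h. So were muscle precursor sums (175 to 200 CPM in C59, 208.5 to 235 CPM in DMSO). Nerve and Schwann cell sums were higher in C59 at 6 h (39.8 to 51.75 and 30.3 to 35.95 CPM) and 18 h (93.3 to 112 and 66.7 to 80.0 CPM), and overlapped at 24 h. Of 6 erythroid genes tested, 2 rose at 1 h, 2 fell at 6 h, 1 rose at 12 h and 1 fell at 24 h. Among all genes 2.75%, 19.6%, 47.5% and 6.44% passed at these times, in that order. At 6 h 3 of the 5 mesenchyme markers had fallen (1131 to 1232 CPM in C59, 1628 to 1655 CPM in DMSO), as had 11.4% of all genes. In DMSO at 1 h and at 6 h 1 erythroid gene was at 0 in all libraries, and no other gene of these marker lists was in any group. Their part in the changes of the antagonists was not tested.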

How the data were processed

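PolyA RNA was sequenced (paired-end) in 30 libraries, grouped by their labels into 10 groups. Per the methods and labels, reads were trimmed (Cutadapt 1.16), and STAR 2.7.0e aligned them to mm10 using a customized gene annotation. Raw counts per gene, as STAR returned them, form the count table the authors deposited, and its strand setting was not stated. FPKM values, also deposited by the authors, came from Cufflinks 2.2.1 without strand information and with corrections for multi-reads and bias. Library totals ran from 18188636 to 38974885 counts, and counting error limits the genes of low level.

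The tables were joined by Ensembl ID. Protein-coding autosomal genes were tested on counts with the two-sided quasi-likelihood F test of edgeR 4.0.16 (R 4.3.3) after TMM normalization. The filterByExpr filter required 10 counts, and 15 in total, and p-values were adjusted by Benjamini-Hochberg over all genes tested. The fold limit is a log2 fold change of 1 in size. Effects of C59 were fitted on 6 libraries per time, changes of effect on 12, and changes with time in DMSO on the 15 DMSO libraries. SEs were derived from F. The fit was tested on simulated data. In all 30 replicate pairs counts differed beyond sampling noise (chi-square per degree of freedom 3.13 to 45.5, the highest with C59 18 h replicate 3). The study's account of embryo collection gives at least 3 litters per condition and time. The litter of each library was not given, so whether libraries of a group share a mother is not known. The p-values set each difference against the spread between these libraries, which may differ from that between injected females.

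Alternatives were DESeq2 1.42.0, its size factors, upper-quartile factors, other filters, all genes, all 30 libraries, limma 3.58.1 on log2(FPKM + 1) and log2(FPKM + 0.1), other fold limits, a replicate block, and leaving out 1 library. The genes, lists and tests were chosen with earlier results of these data known. Named beyond the 10 genes are *Axin2*, list genes past the fold limit (at most 3 per direction where over 6 passed) and genes of most similar profile (not reported here for *Dkk3*). *Sox9*, *Gm26771*, the *Kremen* genes and *Sostdc1* were named after their values had been seen. Promoter windows come from RefSeq (GRCm38.p6), and gene positions from GENCODE M21.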

Additional observations from a re-analysis of the deposited data

Results flagged for a closer look

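The effect of C59 differed between neighbouring times by the edgeR interaction contrast in 19 instances, each given as the change of the log2 fold change. Between 1 h and 6 h the changes were -0.71 for *Dkk1*, -1.54 for *Dkk2*, -0.42 for *Sfrp1*, -1.24 for *Wif1* and -1.56 for *Sost*. Between 6 h and 12 h they were -1.30 for *Dkk1*, 0.52 for *Dkk2*, 1.08 for *Sfrp2*, 0.50 for *Frzb* and 1.31 for *Sost*. Between 12 h and 18 h they were 0.55 for *Dkk2*, -0.63 for *Dkk3* and 1.12 for *Wif1*. Between 18 h and 24 h they were 1.60 for *Dkk1*, 0.57 for *Dkk2*, -0.51 for *Sfrp1*, -0.77 for *Sfrp2*, 0.50 for *Wif1* and -0.79 for *Sost*.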

How the results depend on the processing

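The falls of *Dkk1*, *Dkk2*, *Wif1* and *Sost* at 6 h and the 6 changes at 12 h passed without any single library, whereas each of the 5 calls at 24 h was lost without at least 2 of the libraries, taken one at a time. Over fits that left out 1 library, the number of the 10 genes that passed was 0 to 1 for 1 h, 2 to 5 for 18 h and 0 to 5 for 24 h. Past the fold limit were 1 to 2 for 18 h, and for 24 h it was 0 to 1. The number with a changed effect was 1 to 4 from 12 h to 18 h and 3 to 8 from 18 h to 24 h, and in DMSO 3 to 4 passed from 1 h to 6 h (5 with all libraries) and 3 to 6 from 18 h to 24 h. At 24 h 0 passed without DMSO 24 h replicate 2, where DMSO keeps 2 libraries and the spread is estimated from fewer samples.

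Under DESeq2, no filter or upper-quartile factors 1 gene passed at 1 h. Under glmTreat against the fold limit 3 passed at 6 h, 1 each at 12 h and 18 h, and 0 at 24 h. limma on either FPKM scale left 1 past the fold limit at 18 h, and 0 past it and 2 passed at 24 h. DESeq2 and a minimum mean of 1 CPM also left 0 past the fold limit at 24 h, since *Sfrp5* then had no adjusted p. With no fold limit 4 counted at 18 h and 5 at 24 h. In DMSO from 1 h to 6 h 3 passed with all 30 libraries and with limma on log2(FPKM + 1). Except where construction shows it, the cause was not tested.

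Signs turned only for log2 fold changes, or changes of them, that had not passed. With limma on log2(FPKM + 1) and log2(FPKM + 0.1), *Sfrp4* at 1 h was 0.028 and 0.101, *Frzb* at 1 h -0.016 and -0.017, and the change of effect of *Sfrp4* from 1 h to 6 h -0.022 on the former. Leaving out 1 library gave at 1 h -0.064 to 0.016 for *Sfrp2*, -0.223 to 0.142 for *Sfrp4*, -0.045 to 0.032 for *Frzb* and -0.165 to 0.079 for *Sost*. It gave -0.027 to 0.182 for *Sfrp2* at 6 h, -0.058 to 0.189 for *Sfrp1* at 12 h, and -0.03 to 0.05 for *Dkk2* and -0.075 to 0.021 for *Frzb* at 24 h. Changes of effect ranged over -0.009 to 0.199 for *Sfrp2* and -0.291 to 0.846 for *Sfrp4* from 1 h to 6 h, -0.02 to 0.215 for *Wif1* from 6 h to 12 h, and -0.055 to 0.304 for *Dkk1* and -0.234 to 0.013 for *Sfrp2* from 12 h to 18 h. In DMSO the ranges were -0.118 to 0.043 for *Dkk3*, -0.131 to 0.018 for *Frzb* and -0.23 to 0.056 for *Sost* from 6 h to 12 h, and -0.1 to 0.048 for *Frzb* from 12 h to 18 h.

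Deviations of same-numbered C59 and DMSO libraries correlated by -0.213 to 0.136, and those of differently numbered libraries by -0.149 to 0.207. These overlapping ranges, from 3 libraries per group, cannot decide whether the replicate number pairs the libraries. With the number as a replicate block, 3 passed at 18 h in place of 4, 5 effects changed from 18 h to 24 h in place of 6, and in DMSO 4 passed from 1 h to 6 h and 6 from 18 h to 24 h. The block took *Sfrp1* at 6 h (edgeR adjusted p 0.0618) and 18 h (0.0794) past the threshold and brought *Frzb* at 6 h under it (0.0482). The depth, with 0 to 40 counts, limits *Sfrp4* and *Sfrp5*.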
